A study of Mus musculus with 2 samples.

Results

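The genes examined are 9 molecules by which circulating leukocytes attach to the vessel wall: the selectins Sele and Selp, the immunoglobulin-family ligands Icam1 and Vcam1, the selectin ligand Selplg, and the leukocyte integrin subunits Itgal, Itgam, Itga4 and Itgb2. They were taken by gene symbol from the 32285 genes of the deposited tables, and all 9 were found, each under 1 identifier. Messenger RNA was counted by the 10x 3′ single-cell method in cells of injured mouse carotid arteries collected 18 hours after a temporary ligation that injures the endothelium. The control library came from mice of genotype CDH5 Cre- Cx43fl/fl, and the other library, labelled EC-Cx43-KO, from CDH5 Cre+ Cx43fl/fl mice. Both groups therefore carry floxed connexin 43 alleles, and the design text calls the endothelial deletion inducible. The Cre is driven by the promoter of Cdh5, an endothelial gene. Arteries of 1 genotype were digested briefly with liberase, pooled, treated to lyse red cells and frozen in 10% DMSO, so each group is 1 library. There is no replicate check and no test, and every interval is a 95% interval for counting error only.

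Leukocyte capture runs in steps. Selectins on endothelium or platelets bind glycosylated PSGL-1, the product of Selplg, and slow the cell into rolling. Chemokine signals then switch integrins to their binding form, so that LFA-1 (Itgal with Itgb2) and Mac-1 (Itgam with Itgb2) hold ICAM-1, and VLA-4 (Itga4 with Itgb1) holds VCAM-1. P-selectin is stored ready-made in endothelial and platelet granules, whereas E-selectin, ICAM-1 and VCAM-1 are made anew after inflammatory signalling through NF-kB.

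The control library held 7298 barcodes and 48862850 unique molecular identifiers (UMIs), and the library labelled EC-Cx43-KO (the KO-labelled library) held 8315 barcodes and 54392831 UMIs. After filtering, 6376 and 7236 cells remained, and 12 of these cell barcodes occurred in both libraries. Cells were grouped into 35 clusters without use of the 9 genes, and clusters were named X-like from marker lists. The classes, control first, were endothelial cell (EC)-like with 385 and 487 cells, smooth muscle cell (SMC)-like with 415 and 546, fibroblast-like with 1377 and 1590, monocyte/macrophage-like with 1143 and 1405, neutrophil-like with 1105 and 1289, dendritic-like with 146 and 166, T/NK-like with 92 and 120, and B cell-like with 103 and 170. Gja1, the targeted gene, gave 82 UMIs, or 21.2 CPM (UMIs scaled to a class total of 1000000), in control EC-like cells and 156 UMIs, 37.7 CPM, in KO-labelled ones. The higher value goes against the label. Of those UMIs, 24 and 86 lay in a small capillary-like cluster, and in the main EC-like cluster Gja1 stood at 4.42 and 4.28 CPM. Most of the other UMIs lay in the remaining EC-like cluster, led by Procr, where the level was also higher in the KO-labelled library. The labels do not give the deleted stretch, and 3′ tags outside it check nothing.

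For 5 of the 9 genes the RefSeq promoter table on GRCm38.p6 has an entry. The 170 bases before the start are shown for the ligands Sele, Selp and Icam1, whose control by inflammation bears on an injured artery, and for Itgam as a leukocyte counterpart. Capitals mark matches on either strand to the NF-kB type GGNNNTTCC, in Sele also to TATAAA, and in Itgam to the PU.1 type GAGGAA. The stretches are chr1:164048064-164048233, chr1:164115094-164115263, chr9:21015770-21015939 and chr7:128062470-128062639, all on the plus strand.
Sele: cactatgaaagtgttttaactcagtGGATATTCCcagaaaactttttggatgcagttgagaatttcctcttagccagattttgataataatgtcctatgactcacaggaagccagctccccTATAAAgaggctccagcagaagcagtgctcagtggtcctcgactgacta
Selp: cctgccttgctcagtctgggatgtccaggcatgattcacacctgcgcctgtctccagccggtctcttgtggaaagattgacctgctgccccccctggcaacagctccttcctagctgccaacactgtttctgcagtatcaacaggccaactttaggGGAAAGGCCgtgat
Icam1: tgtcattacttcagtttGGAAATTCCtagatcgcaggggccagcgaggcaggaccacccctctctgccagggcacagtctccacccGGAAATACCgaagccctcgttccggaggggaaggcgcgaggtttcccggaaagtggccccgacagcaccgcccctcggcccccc
Itgam: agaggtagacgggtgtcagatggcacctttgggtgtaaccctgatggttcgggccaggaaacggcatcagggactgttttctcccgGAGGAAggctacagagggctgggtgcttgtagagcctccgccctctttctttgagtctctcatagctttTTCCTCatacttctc
Counted from the RefSeq start, Sele held 1 NF-kB-type match at -145 to -137 and TATAAA at -49 to -44. Icam1 held the NF-kB type at -153 to -145, where the letters match on both strands, and again on the minus strand at -84 to -76. The Selp match lay at -14 to -6 on the minus strand, and the PU.1-type matches of Itgam at -84 to -79 and, on the minus strand, at -15 to -10. Sele also held TTCCTC, the minus-strand PU.1 type, at -107 to -102, left in lower case. The entry of Itga4 held none of the 3 motifs. Of 32851 promoters in the table, 11.4% held the NF-kB type in the same 170 bases, 8.40% held TATAAA and 16.2% held the PU.1 type. A match is a description of letters, not a bound site.

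The ligands came first. Sele, Selp and Vcam1 were largely endothelial genes in both libraries, whereas Icam1 was spread over endothelial, stromal and myeloid cells. EC-like cells gave 78.4% of the control library's Sele UMIs and 77.1% of the KO-labelled library's. They gave 88.2% and 89.1% of Selp UMIs and 71.9% and 66.6% of Vcam1 UMIs, but 20.8% and 23.2% of Icam1 UMIs. Between the libraries, the endothelial levels of Selp, Icam1 and Vcam1 lay within a log2 ratio of 0.2 of each other. The size used for calling a difference was a log2 ratio of at least 0.58, about 1.5-fold, in a gene with at least 20 UMIs over both libraries.

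**Figure D1:**
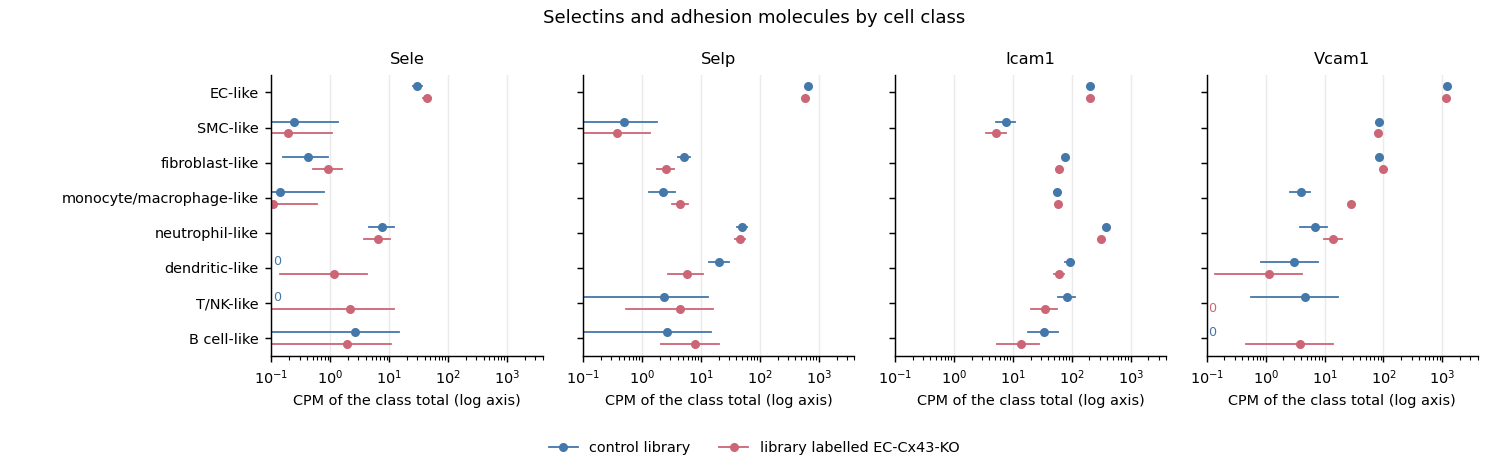
Levels of the 4 ligand genes in 8 cell classes of the control library (blue) and the library labelled EC-Cx43-KO (red), as CPM of the summed UMIs of the class on a log axis. Points are 1 library each, bars are exact 95% Poisson intervals cut off at the left edge, and 0 marks a class without a UMI. Sele, Selp and Vcam1 peak in EC-like cells, and Icam1 peaks in neutrophil-like cells.

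Sele encodes E-selectin, which the textbook places on activated endothelium (ENSMUSG00000026582, chromosome 1, 164048234 to 164057677 on GRCm38). It was the scarcest ligand in counts, with 116 UMIs in control and 182 in KO-labelled EC-like cells. The level was 30.0 CPM (24.8 to 36.0) for control cells and 44.0 CPM (37.8 to 50.8) for KO-labelled cells. The log2 ratio of KO-labelled over control was 0.55 (0.21 to 0.90), just short of the calling size. It passed that size in the same direction in 7 of 14 alternative settings. Among them were 0.64 with at least 500 genes per cell, 0.62 with up to 25% mitochondrial UMIs and 0.61 by median-of-ratios scaling. The transcripts came from few cells: 35 of 385 control and 43 of 487 KO-labelled cells had a Sele UMI. The 5 cells with most Sele UMIs held 53.4% of the control UMIs and 56.0% of the KO-labelled ones, and 1 cell alone held 34 and 50. Without those 5 cells in each library the log2 ratio was 0.45.

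The direction for Sele did not hold in cells split by sex-linked transcripts. Both pools held cells with UMIs of Xist, which female cells make, and cells with UMIs of Y-linked genes. Among EC-like cells with Xist UMIs and no Y-linked UMI, 202 control cells gave 43.5 CPM and 147 KO-labelled cells 23.2 CPM, a log2 ratio of -0.90 (-1.51 to -0.33). Among cells with Y-linked UMIs and no Xist UMI, 90 control cells gave 8 Sele UMIs, 8.12 CPM, and 202 KO-labelled cells gave 124 UMIs, 67.9 CPM. That log2 ratio was 3.06 (2.04 to 4.31). As summed UMIs, the libraries thus differ in opposite directions in the 2 kinds of cell, and the mix of these cells differs between libraries. Single cells weigh on both ratios. Xist cells held 96 of 116 control UMIs and Y-linked cells 8, so the control cell with 34 UMIs was among the former. Y-linked cells held 124 of 182 KO-labelled UMIs and Xist cells 35, so the cell with 50 UMIs was among the former. Ratios without these single cells were not run.

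Outside the endothelium Sele was near absent. Neutrophil-like cells held 18 and 16 UMIs, 7.62 and 6.40 CPM, and fibroblast-like cells 6 and 14 UMIs, at 0.424 and 0.929 CPM. SMC-like and monocyte/macrophage-like cells held 1 UMI in each library. Across the 7 classes with at least 100 cells in each library, which give 14 points, the patterns most like that of Sele were those of Vwf, Bmx and Ccm2l among 11828 genes. Vwf encodes von Willebrand factor, the endothelial and platelet adhesion protein, and its Pearson r was 0.94. All such values rest on log2(CPM + 1), share libraries and class totals, and are descriptions only.

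Selp encodes P-selectin (ENSMUSG00000026580, chromosome 1, 164115264 to 164150026), and Gm16587 and Gm16548 lie over it on the other strand. In EC-like cells it gave 2505 control and 2392 KO-labelled UMIs. The level was 649 CPM (623 to 675) in control and 578 CPM (555 to 601) in KO-labelled cells. The intervals do not overlap, but the log2 ratio was small, -0.17 (-0.25 to -0.09). Without the capillary-like cluster, which held 7 control and 61 KO-labelled cells, the ratio was -0.083. Vwf, again, was the gene most like Selp over the classes (r 0.94), followed by Palmd and Chrm3.

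Platelet-like and neutrophil-like cells were the next highest for Selp. Platelet-like barcodes numbered 27 and 49 and held 5 Selp UMIs in each library, 119 CPM (38.5 to 277) and 93.6 CPM (30.4 to 218). Neutrophil-like cells gave 117 and 115 Selp UMIs, or 49.6 CPM (41.0 to 59.4) and 46.0 CPM (38.0 to 55.2), spread over 97 and 85 cells with at most 3 and 4 UMIs in a cell. The platelet marker Pf4 stood at 99.5 and 166 CPM in neutrophil-like cells, and the 11 endothelial markers summed to 42.4 and 45.2 CPM there, against 5599 and 5851 CPM in EC-like cells. Of those 11 markers, 1 was at 0 in the control neutrophil-like cells and none in the KO-labelled ones. With free RNA subtracted at that endothelial marker rate, 7.62% and 7.99% of the overall profile, 106 of 117 and 104 of 115 Selp UMIs were left. The part of platelet RNA in the Selp level was not tested. Neutrophil-like and platelet-like intervals overlap, so their order is not settled.

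Other classes held little Selp. Dendritic-like cells had 27 and 10 UMIs, 20.5 and 5.81 CPM, a log2 ratio of -1.82 (-3.03 to -0.73). Fibroblast-like cells had 73 and 38 UMIs, 5.16 and 2.52 CPM, and of these UMIs 58.9% and 60.5% came from 5 cells per library. In fibroblast-like cells with Y-linked UMIs the direction turned, on 2 and 7 UMIs. In the monocyte/macrophage-like cells 16 and 41 UMIs gave 2.27 and 4.43 CPM, and 5 cells of the KO-labelled library held 31 of the 41. The endothelial markers stood in this class at 8.57% and 12.3% of their share of the library's overall profile. With that share of the profile subtracted, no Selp UMI was left in either library. At the median rate over all pairs of marker list and class, 2.05% and 2.29%, 7.11 of 16 and 29.8 of 41 were left. The fibroblast-like and monocyte/macrophage-like levels rest largely on a handful of cells that carry many UMIs each. The spread over cells was not examined for dendritic-like cells.

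Vcam1 encodes VCAM-1, the ligand of the integrin VLA-4 (ENSMUSG00000027962, chromosome 3, 116109949 to 116129688, minus strand, with Gm43109 on the other strand). EC-like cells gave 4657 control and 4834 KO-labelled UMIs. The level was 1206 CPM (1172 to 1241) in control and 1168 CPM (1135 to 1201) in KO-labelled EC-like cells, and these intervals overlap. The log2 ratio was -0.05 (-0.10 to 0.01). After thinning each cell to 1000 UMIs, a Vcam1 UMI was seen in 49.9% of 381 control cells (Clopper-Pearson interval 44.7 to 55.0) and in 42.7% of 473 KO-labelled cells (38.2 to 47.3), with 4 and 14 shallower cells left out. Of the 473 KO-labelled cells, 18 lay in a subcluster led by Inhbb and Apln and 31 in one led by Pparg and Rbp7. Of these, 1 and 0 had a Vcam1 UMI. The control library held 6 and 1 such cells, of which 0 and 0 had one. Without thinning 85.2% and 74.9% of EC-like cells had a Vcam1 UMI, and the median depth was 7674 and 6945 UMIs. T/NK-like cells, which should lack the gene, gave 1 of 88 and 0 of 109 thinned cells, the latter allowing up to 2.75%, at median depths of 4255 and 3573 UMIs. In the cells with Xist UMIs the log2 ratio was -0.17 and in those with Y-linked UMIs 0.37, so the near-equal total joins opposite values. The genes most like Vcam1 over the classes were Jcad (r 0.97), Ptprm and Plxna2.

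Icam1 encodes ICAM-1, which LFA-1 and Mac-1 bind (ENSMUSG00000037405, chromosome 9, 21015985 to 21028817, with Gm47079 on the other strand). EC-like cells gave 790 and 848 UMIs, 205 CPM (191 to 219) in each library, and the log2 ratio was 0.00 (-0.14 to 0.14). EC-like cells were not the highest class. Neutrophil-like cells gave 902 and 797 UMIs, 382 CPM (357 to 408) and 319 CPM (297 to 342), a log2 ratio of -0.26 (-0.40 to -0.12). Next came dendritic-like cells at 93.4 and 60.4 CPM, T/NK-like at 82.9 and 35.0, fibroblast-like at 76.9 and 60.9, and monocyte/macrophage-like at 56.4 and 57.8. In the KO-labelled library the intervals of dendritic-like, fibroblast-like and monocyte/macrophage-like cells overlap. SMC-like cells were lowest, at 7.61 and 5.28 CPM on 31 and 28 UMIs. Over the classes, Tnfaip2 (r 0.94), Btbd19 and Gnai3 were most like Icam1.

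The EC-like cells were not uniform. A cluster led by Procr, Ccnd1 and Hbegf, with 39 control and 42 KO-labelled cells, carried the highest Vcam1 and Selp levels of the 3 EC-like clusters. Vcam1 stood there at 1570 CPM (1475 to 1669) in control and 2079 CPM (1963 to 2200) in KO-labelled cells, a log2 ratio of 0.41 (0.28 to 0.53), with 5 cells holding 37.6% and 49.1% of the UMIs. In the main cluster, led by Ptprb and with Gja5 and Bmx among its 10 leading genes, 339 and 384 cells gave 1146 and 1109 CPM. Selp was at 862 and 870 CPM in the Procr-led cells against 605 and 567 CPM in the main cluster. Icam1 did not share this order, at 182 and 178 CPM against 211 and 216. Sele was at 64.1 and 55.4 CPM in the Procr-led cells and at 22.7 and 44.6 CPM in the main cluster, where its log2 ratio was 0.97 (0.56 to 1.40). In the main cluster 17 of 339 control and 28 of 384 KO-labelled cells had a Sele UMI. There 5 cells per library held 57 of 72 control and 101 of 146 KO-labelled Sele UMIs. Of all genes measured in that cluster, 4.1% were higher by the calling size.

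The capillary-like cluster, led by Fabp4, Gpihbp1 and Rbp7, was the exception for Vcam1. It held 0 Vcam1 UMIs in 7 control cells and 5 UMIs, 17.2 CPM, in 61 KO-labelled cells. Its 26 control Selp UMIs lay in 1 cell, and 34 KO-labelled Selp UMIs lay in 5 cells. Icam1 was present at 75.0 and 134 CPM on 3 and 39 UMIs. An unnamed shallow cluster led by endothelial genes (Klk10, Gja5, Edn1), at median depths of 827 and 1023 UMIs, held 93 and 97 cells with Vcam1 at 1013 and 1253 CPM and Selp at 457 and 450 CPM. Icam1 was at 286 CPM (214 to 376) and 138 CPM (84.6 to 214) there, a log2 ratio of -1.05 (-1.87 to -0.28). Sele differed the other way there, at 27.5 and 104 CPM on 5 and 15 UMIs, a ratio of 1.92 (0.38 to 3.73). Of all genes measured in that cluster, 13.3% were higher and 16.2% lower by the calling size.

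**Figure D2:**
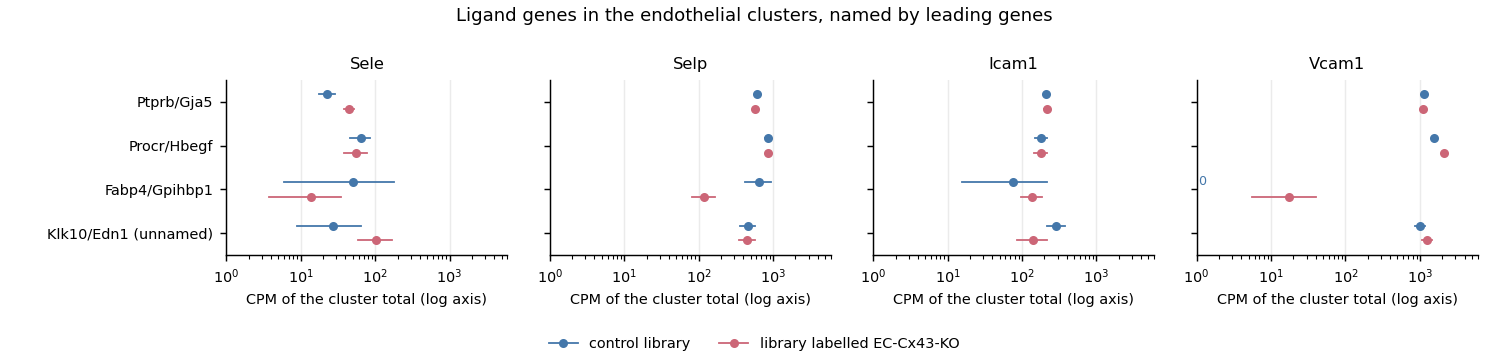
Ligand levels in the 3 EC-like clusters and the shallow unnamed cluster with endothelial genes, named by leading genes, as CPM of the cluster total on a log axis with exact 95% Poisson intervals. Blue is the control library and red the library labelled EC-Cx43-KO. Vcam1 is above 1000 CPM in all but the Fabp4/Gpihbp1 cluster, which held 0 and 5 Vcam1 UMIs.

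A finer split of the EC-like cells, again without the 9 genes, separated Icam1 from Vcam1. In a subcluster of 69 and 108 cells led by Nfe2l3 and Ahsg, with Gem and Rasgef1b, Icam1 reached its highest levels, 365 and 313 CPM, and Vcam1 was at 1241 and 1186 CPM. In the subcluster led by Ano1, Ccnd1 and Procr, of 45 and 48 cells, Icam1 was at 168 and 179 CPM and Vcam1 at 1566 and 2335 CPM. The subcluster led by Tox, with 140 and 125 cells, had the lowest Icam1 and Vcam1 of those with at least 40 cells per library, at 143 and 135 CPM and at 799 and 675 CPM. Sele was at 6.43 and 6.63 CPM in the Tox-led cells, on 6 and 5 UMIs, and at 54.4 and 118 CPM in the Ano1-led cells, on 43 and 78 UMIs. Of the Ano1-led cells, 18 of 45 control and 14 of 48 KO-labelled cells had a Sele UMI. In the Procr-led cluster of the coarser split, Sele differed the other way, on 42 and 32 UMIs in 39 and 42 cells.

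Pairs of ligands were seen in the same EC-like cells in shares whose intervals held the product of the separate shares. Selp with Vcam1 in the KO-labelled library was the exception. The share lay above the product for every pair in both libraries, except Sele with Vcam1 in the control library, at 1.62% against 1.66%. After thinning to 2000 UMIs, Icam1 and Vcam1 were both seen in 18.6% of 371 control cells (14.8 to 22.9) and 17.6% of 455 KO-labelled cells (14.2 to 21.4), and the product of the separate shares was 16.6% and 15.7%. Selp and Vcam1 were both seen in 40.2% and 36.7%, against products of 37.1% and 31.1%. In the KO-labelled cells that interval, 32.3 to 41.3, lies above the product. Of these 455 cells, 13 lay in a subcluster led by Inhbb and Apln and 29 in one led by Pparg and Rbp7. Among them 0 and 1 had a Vcam1 UMI, and 2 and 1 had a Selp UMI. The control library held 6 and 1 such cells. Their part in the excess over the product was not tested. Sele and Icam1 shared 4 control and 11 KO-labelled cells, 1.08% and 2.42%, against products of 0.727% and 1.24%. Cells are not replicates, and these shares describe 2 libraries.

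Stromal cells carried Vcam1 and Icam1 but almost no selectin. In fibroblast-like cells Vcam1 gave 1178 and 1491 UMIs, 83.2 CPM (78.5 to 88.1) and 99.0 CPM (94.0 to 104), a log2 ratio of 0.25 (0.14 to 0.36). The direction turned with the cells taken: the ratio was 0.76 (0.60 to 0.91) in cells with Xist UMIs and -0.12 (-0.31 to 0.07) in cells with Y-linked UMIs. By cluster, Vcam1 was highest in the cells led by Pex5l and Comp, with Sfrp2, at 145 and 221 CPM, a log2 ratio of 0.60 (0.41 to 0.80). The cells led by Tnfrsf11b, with Inhba and Cxcl5, had 71.1 and 107 CPM, a ratio of 0.59 (0.36 to 0.83). The Tmem100 and Pi16 cells had 57.8 and 33.4 CPM, a ratio of -0.79 (-1.13 to -0.46). The fibroblast clusters therefore differed between the libraries in different directions.

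Icam1 in fibroblast-like cells gave 1088 and 918 UMIs, 76.9 CPM (72.4 to 81.6) and 60.9 CPM (57.1 to 65.0), a log2 ratio of -0.33 (-0.46 to -0.21). As a mean of single-cell CPM the ratio was -0.60. It was -0.085 in cells with Xist UMIs and -0.57 in cells with Y-linked UMIs. The Comp and Sfrp2 cells were again high, at 142 and 96.7 CPM, with a ratio of -0.55 (-0.79 to -0.32), opposite in sign to Vcam1 in the same cells. The ratio was below 0 in 4 of the 6 fibroblast-like clusters. It was above 0 in the cells led by Tnfrsf11b, at 0.19 (-0.08 to 0.47), and in the Sdk1 and Bnc2 cells, at 0.52 (-0.07 to 1.11), and both intervals hold 0.

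SMC-like cells gave 343 and 421 Vcam1 UMIs, 84.2 CPM (75.5 to 93.6) and 79.4 CPM (72.0 to 87.4), and the log2 ratio was -0.08 (-0.29 to 0.13). Cells with Xist UMIs gave a ratio of 0.68 (0.40 to 0.96) and cells with Y-linked UMIs -0.07 (-0.57 to 0.45). Most of the UMIs lay in 1 SMC-like state. The cluster with Tagln, Cnn1 and Rgs4 among its leading genes held 318 and 388 of them, at 164 and 133 CPM, and the cluster led by Sost, with Myh11, held 25 and 26, at 12.6 and 11.9 CPM. The 5 cells with most Vcam1 UMIs held 34.7% of the control and 23.0% of the KO-labelled total.

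Monocyte/macrophage-like cells showed the largest library difference of the 9 genes among the named classes with at least 20 UMIs. Vcam1 gave 28 UMIs in control and 265 in KO-labelled cells, 3.97 CPM (2.64 to 5.73) and 28.6 CPM (25.3 to 32.3), a log2 ratio of 2.85 (2.29 to 3.47). Most came from the cluster led by Lyve1, Cd163 and Il10, known markers of resident macrophages, which numbered 89 control and 255 KO-labelled cells. There 18 and 230 UMIs gave 36.8 CPM (21.8 to 58.2) and 172 CPM (151 to 196), a log2 ratio of 2.23 (1.53 to 3.01). Of 7881 genes measured in this cluster, 14.5% were higher in the KO-labelled library by the calling size. Within it 7 control and 37 KO-labelled cells had a Vcam1 UMI, and 5 cells held 16 of 18 and 122 of 230 UMIs. Without this cluster the class ratio was 1.54. The endothelial marker list summed to 28.6 and 36.7 CPM in the cluster, with 7 of 11 markers at 0 in the control cells. Vcam1 in the KO-labelled cells thus stood above the sum of the endothelial markers. The ratio was 4.22 in cells with Xist UMIs and 2.26 in those with Y-linked UMIs, and 1.91 with doublets kept. With free RNA subtracted at the rate of the endothelial markers, 5.15% and 6.49% of the overall profile in this cluster, 14.4 of 18 and 218 of 230 Vcam1 UMIs were left in the Lyve1-led cells. Vcam1 was lower in the KO-labelled library in unnamed clusters rich in monocyte/macrophage markers. The one led by Fabp5 and Spp1, with 1109 and 811 cells, gave 43 and 20 UMIs, a log2 ratio of -0.76 (-1.60 to 0.04). There 5.09% of all genes measured were lower by the calling size. Others, of 51 and 95 cells and of 242 and 262 cells, held 14 and 0 and 8 and 5 Vcam1 UMIs.

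**Figure D3:**
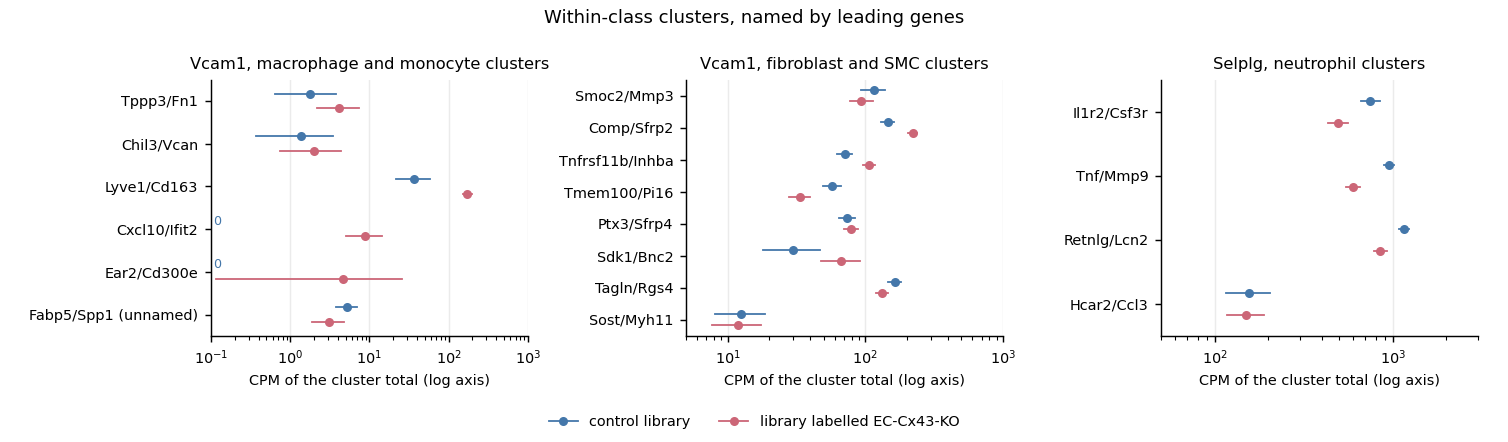
Vcam1 in macrophage and monocyte clusters (left) and in fibroblast-like and SMC-like clusters (middle), and Selplg in neutrophil-like clusters (right), as CPM of the cluster total on log axes that differ between panels. Bars are exact 95% Poisson intervals, blue is the control library and red the library labelled EC-Cx43-KO. Vcam1 differs most in the Lyve1/Cd163 cluster, at 36.8 and 172 CPM, and Selplg is lower in 3 of the 4 neutrophil-like clusters of the KO-labelled library.

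Icam1 within neutrophil-like cells differed widely by state. The cells with Mmp9 and Tnf among their leading genes had 702 CPM in control and 470 CPM in KO-labelled cells, a log2 ratio of -0.58 (-0.76 to -0.40). The Hcar2 and Ccl3 cells had 221 and 424 CPM, a ratio of 0.94 (0.55 to 1.35), in the other direction. The cells led by Retnlg, with S100a8 and Lcn2, genes of mature circulating neutrophils, had 26.9 and 22.6 CPM. The class value of -0.26 joins these opposite differences. In neutrophil-like cells with Y-linked UMIs the ratio was 1.40, so the direction of the class value turned.

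The counter-receptors followed, and each was highest in a leukocyte class. Selplg encodes PSGL-1 (ENSMUSG00000048163, chromosome 5, 113818536 to 113832644, minus strand). It was highest in neutrophil-like cells, with 2067 control and 1393 KO-labelled UMIs. The level was 875 CPM (838 to 914) in control and 557 CPM (528 to 587) in KO-labelled cells, a log2 ratio of -0.65 (-0.75 to -0.55). The intervals lie well apart, and over all genes measured in this class the median log2 ratio was -0.08. By median-of-ratios scaling the ratio was -0.57, short of the calling size. After thinning to 1000 UMIs, a Selplg UMI was seen in 52.2% of 812 control cells (48.7 to 55.7) and in 40.1% of 905 KO-labelled cells (36.9 to 43.4), with 293 and 384 shallower cells left out. Without thinning the shares came to 61.5% and 48.2%, and the median depth was 1847 and 1648 UMIs. In EC-like cells, which should lack it, 0 of 381 (up to 0.787%) and 5 of 473 thinned cells had one.

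The Selplg level was lower, with intervals of the ratio below 0, in 3 of the 4 neutrophil-like clusters, and by the calling size in 2. Of all genes measured in the clusters, the share lower by that size was 11.4% in the Il1r2-led, 13.2% in the Mmp9 and Tnf, 15.6% in the Retnlg-led and 16.9% in the Hcar2-led cells. The Retnlg-led cells had 1152 CPM (1076 to 1232) in control and 850 CPM in KO-labelled cells, a ratio of -0.44 (-0.59 to -0.28). The Mmp9 and Tnf cells had 954 and 598 CPM, a ratio of -0.67 (-0.83 to -0.52), and the Il1r2 and Csf3r cells had 747 and 494 CPM, a ratio of -0.60 (-0.85 to -0.34). The Hcar2 and Ccl3 cells were low in both libraries, at 155 and 150 CPM, a ratio of -0.05. The ratio for the class was -0.52 (-0.78 to -0.26) in cells with Xist UMIs, short of the calling size, and -0.67 (-0.94 to -0.41) in cells with Y-linked UMIs. Samsn1 (r 0.99), Cyp4f18 and Atxn7l1 were most like Selplg over the classes.

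After neutrophil-like cells, Selplg stood at 609 and 452 CPM in T/NK-like cells, 200 and 151 in dendritic-like, 104 and 87.0 in monocyte/macrophage-like, and 94.4 and 103 in B cell-like cells. The B cell-like and monocyte/macrophage-like intervals overlap. The natural killer part of the T/NK-like class, led by Gzma and Ccl5, had 902 and 727 CPM in 21 and 22 cells. EC-like, SMC-like and fibroblast-like cells stayed between 2.39 and 7.73 CPM.

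Itgal encodes the alpha chain of LFA-1 (ENSMUSG00000030830, chromosome 7, 127296260 to 127335138). T/NK-like cells were the highest named class in the control library. They had 208 and 128 UMIs at 493 CPM (428 to 564) and 280 CPM (233 to 333), a log2 ratio of -0.82 (-1.15 to -0.49). The ratio was -0.22 in cells with Xist UMIs and -1.29 in those with Y-linked UMIs. Neutrophil-like cells had 825 and 720 UMIs, 349 CPM (326 to 374) and 288 CPM (267 to 310). In the KO-labelled library they stood slightly above T/NK-like cells, and both intervals overlap. Platelet-like barcodes held 19 and 15 Itgal UMIs, 451 and 281 CPM. Monocyte/macrophage-like cells had 99.5 and 97.1 CPM and B cell-like cells 91.8 and 31.1 CPM, the latter on 35 and 16 UMIs with a ratio of -1.56 (-2.51 to -0.67). Dendritic-like cells had 28.1 and 45.9 CPM, a ratio of 0.71 (0.13 to 1.31). The small cluster led by Adgre4, Ear2 and Cd300e, genes of patrolling monocytes, exceeded them all at 1406 and 1409 CPM in 19 and 40 cells. Ptpn1 (r 0.99), Vav1 and Ncf1 were most like Itgal over the classes.

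Itgam encodes the alpha chain of Mac-1, also known as CD11b (ENSMUSG00000030786, chromosome 7, 128062640 to 128118491). Gm49368 overlaps it on the same strand, so its counts may be split with that model. Monocyte/macrophage-like cells gave 10338 and 11910 UMIs, 1465 CPM (1437 to 1493) and 1286 CPM (1263 to 1310), a log2 ratio of -0.19 (-0.23 to -0.15). The main clusters of this class differed in size between the libraries, with 693 and 519 cells led by Tppp3, 324 and 346 led by Chil3, 89 and 255 led by Lyve1, and 18 and 245 with Cxcl10 and Ifit2. Within them the Itgam ratio was 0.04 (-0.02 to 0.09) in the Tppp3-led, 0.01 (-0.06 to 0.07) in the Chil3-led, 0.01 (-0.24 to 0.27) in the Cxcl10 and Ifit2 and -0.16 (-0.36 to 0.04) in the Lyve1-led cells. The lower class value was therefore not seen in the 2 largest clusters. Itgam stood at 1771 and 1817 CPM in the Tppp3-led cells against 595 and 534 CPM in the Lyve1-led cells. Neutrophil-like cells followed at 1387 CPM (1340 to 1436) and 1243 CPM (1200 to 1288), and in the KO-labelled library both intervals overlap. An unnamed cluster of 1109 and 811 cells led by Fabp5 and Spp1, in which 13 of the 14 monocyte/macrophage markers were above their mean over the other clusters, had 1179 and 1296 CPM, the ratio of 0.14 (0.09 to 0.18) being of the other sign. Dendritic-like cells had 804 and 841 CPM. B cell-like cells, at 47.2 and 50.6 CPM, and T/NK-like cells, at 90.0 and 76.5 CPM, were far lower. Pirb (r 0.99), Pira2 and Atp8b4 were most like Itgam.

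Itga4 encodes the alpha chain of VLA-4 (ENSMUSG00000027009, chromosome 2, 79255426 to 79333123, with Cerkl on the other strand). Its order differed from that of the other integrins. B cell-like cells were highest, with 605 and 651 UMIs at 1586 CPM (1462 to 1718) and 1266 CPM (1171 to 1367), a log2 ratio of -0.33 (-0.49 to -0.16). The direction turned with the cells taken: it was -0.57 (-0.79 to -0.36) in cells with Xist UMIs and 0.32 (-0.02 to 0.66), on 107 and 245 UMIs, in cells with Y-linked UMIs. T/NK-like cells had 990 CPM (897 to 1090) and 642 CPM (571 to 720), a ratio of -0.62 (-0.84 to -0.41). With at least 500 genes per cell this ratio was -0.35, short of the calling size. Then came dendritic-like cells at 343 and 355 CPM, monocyte/macrophage-like at 171 and 174, and neutrophil-like at 113 and 102. The Ear2 and Cd300e cells were again high, at 1252 and 1683 CPM on 130 and 368 UMIs, a ratio of 0.43 (0.13 to 0.73). SMC-like cells held 55 and 71 Itga4 UMIs, 13.5 and 13.4 CPM, of which 46.5 and 58.4 were left after the estimated free RNA was subtracted. Rest (r 0.98), Tnfrsf13b and Sgk3 were most like Itga4.

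Itgb2 encodes CD18, the beta chain shared by LFA-1 and Mac-1 (ENSMUSG00000000290, chromosome 10, 77530252 to 77565708). Monocyte/macrophage-like cells gave 4236 and 5185 UMIs, 600 CPM (582 to 619) and 560 CPM (545 to 576), a log2 ratio of -0.10 (-0.16 to -0.04). The 2 largest clusters of this class went the other way. The Tppp3-led cells had 741 and 818 CPM, a ratio of 0.14 (0.06 to 0.22), and the Chil3-led cells 512 and 566 CPM, a ratio of 0.15 (0.04 to 0.25). The Lyve1-led cells, more numerous in the KO-labelled library, were low in both, at 168 and 175 CPM. Dendritic-like cells had 392 and 488 CPM, a ratio of 0.32 (0.16 to 0.48), and neutrophil-like cells 407 and 352 CPM, a ratio of -0.21 (-0.35 to -0.08). In the control library these last 2 classes overlap. T/NK-like cells had 249 and 192 CPM and B cell-like cells 76.0 and 37.0 CPM, the latter on 29 and 19 UMIs. Pirb (r 0.99), Actr2 and the partner subunit Itgam (r 0.98) were most like Itgb2 over the classes.

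**Figure D4:**
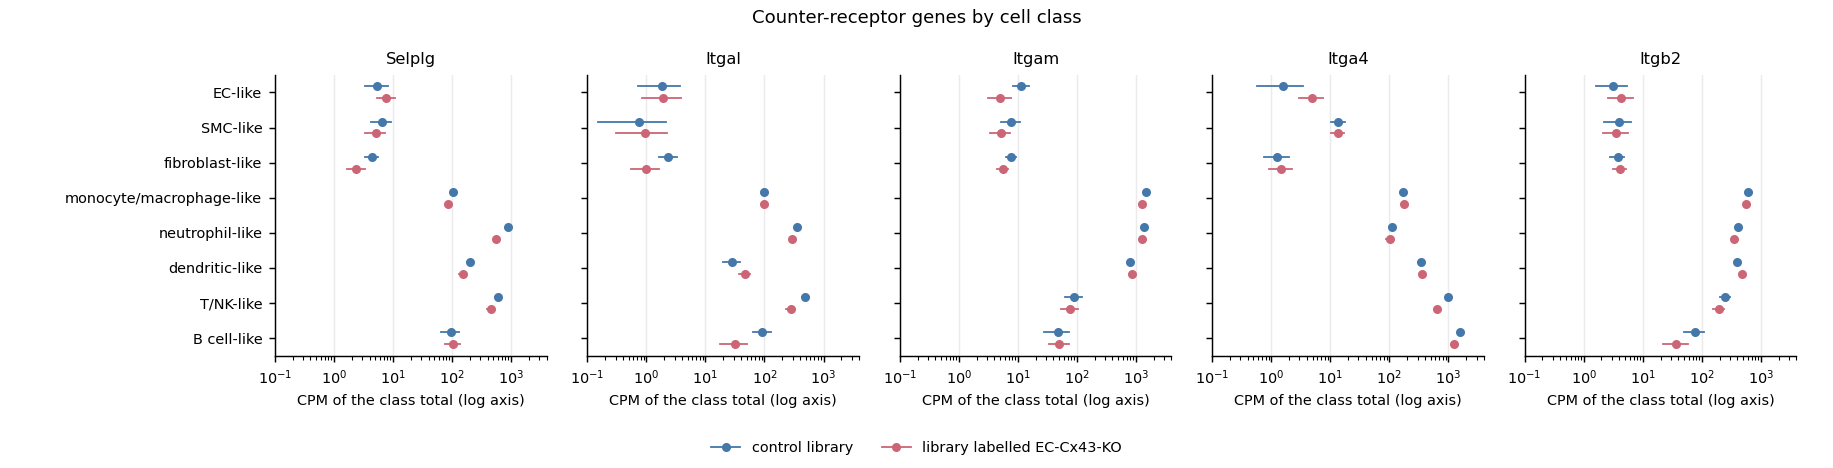
Levels of Selplg and the 4 integrin genes in 8 cell classes of the control library (blue) and the library labelled EC-Cx43-KO (red), as CPM of the class total on a log axis. Bars are exact 95% Poisson intervals cut off at the left edge. Selplg peaks in neutrophil-like, Itgam and Itgb2 in monocyte/macrophage-like and Itga4 in B cell-like cells. Itgal peaks in T/NK-like cells of the control library. In the library labelled EC-Cx43-KO, neutrophil-like cells are slightly higher for Itgal, with overlapping intervals. The EC-like, SMC-like and fibroblast-like values lie at 13.5 CPM or lower.

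The vessel wall cells held few integrin counts. In EC-like cells Itgam had 44 and 21 UMIs, 11.4 and 5.07 CPM, a log2 ratio of -1.17 (-1.99 to -0.39). With doublets kept that ratio was -0.13. Itga4 had 6 and 20 UMIs there, 1.55 and 4.83 CPM, a ratio of 1.64 (0.27 to 3.24), and 16 of the 20 lay in 5 cells. The 8 B cell markers summed to 2.59 and 22.0 CPM in EC-like cells, with 4 of them at 0 in the control library and 0 at 0 in the KO-labelled one. Their part in the Itga4 value was not tested. Among EC-like cells with Y-linked UMIs, 2 and 4 Itga4 UMIs stood at 2.03 and 2.19 CPM. The ratio there was -0.47 only because 3 UMIs stood for the 2 of the control library.

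Free RNA was estimated from markers of one class in cells of another. The estimates ran from 0.868% to 8.57% of the overall profile over the pairs of marker list and class in the control library and from 1.15% to 12.3% in the KO-labelled one, with medians of 2.05% and 2.29%. After subtraction of the median, no Itgam or Itgb2 UMI was left in EC-like, SMC-like or fibroblast-like cells of either library. Of the EC-like Itga4 UMIs, 0 of 6 and 10.1 of 20 were left.

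In the EC-like, SMC-like and fibroblast-like classes as a whole, most of the 9 genes differed by less than the calling size. Those that passed it in these class totals had levels of 11.4 CPM or lower. Some single clusters given above passed it at higher levels. In EC-like cells 8 of the 9 had at least 20 UMIs, and 1 was higher (Itga4) and 1 lower (Itgam), where 11.5% of 11790 genes passed either way, 5.52% higher and 5.93% lower. None of the 4 ligands passed it there as reported. Sele did in the same direction in 7 of 14 alternative settings, and in the opposite direction with Xist UMIs only. In SMC-like cells 0 of 6 passed, against 10.2% of all genes measured, 5.48% higher and 4.69% lower. In fibroblast-like cells 1 of 9 was higher (Sele) and 3 lower (Selp, Selplg and Itgal), against 11.3% of genes, 5.83% higher and 5.49% lower. In monocyte/macrophage-like cells 2 of 8 were higher (Vcam1 and Selp) and 0 lower, against 15.2%, 9.08% higher and 6.08% lower.

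In neutrophil-like cells 1 of 9 was higher, Vcam1 on 16 and 35 UMIs (0 and 6.18 left at the endothelial marker rate of 7.62% and 7.99%), and 1 lower, Selplg, against 19.7% of genes, 8.96% higher and 10.7% lower. In T/NK-like cells 3 of 6 were lower (Icam1, Itgal and Itga4) and 0 higher, against 23.2% either way, 9.36% higher and 13.9% lower. In B cell-like cells 3 of 6 were lower (Icam1, Itgal and Itgb2), on 20 to 51 UMIs over both libraries, and 0 higher, against 23% either way, 8.87% higher and 14.1% lower. In dendritic-like cells 1 of 7 was higher (Itgal) and 2 lower (Selp and Icam1), against 21% either way, 7.78% higher and 13.2% lower. Over these 8 classes 19 pairs of gene and class passed. Of these, 4 passed in the same direction under every alternative run for them (Vcam1 in monocyte/macrophage-like, Selp in dendritic-like, and Icam1 and Itgal in B cell-like cells), 12 fell short of the size under at least 1, and 3 turned in direction. Those 3 were Itga4 in EC-like and Sele and Selp in fibroblast-like cells. For Itga4 the ratio turned only because 3 UMIs stood for 2 in the control library, and the CPM did not turn. Icam1 in B cell-like cells rested on 13 and 7 UMIs, a log2 ratio of -1.32 (-2.89 to 0.11), an interval that holds 0. It had 9 and 2 UMIs in cells with Xist UMIs. In cells with Y-linked UMIs it had 1 UMI in each library and gave no ratio.

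**Figure D5:**
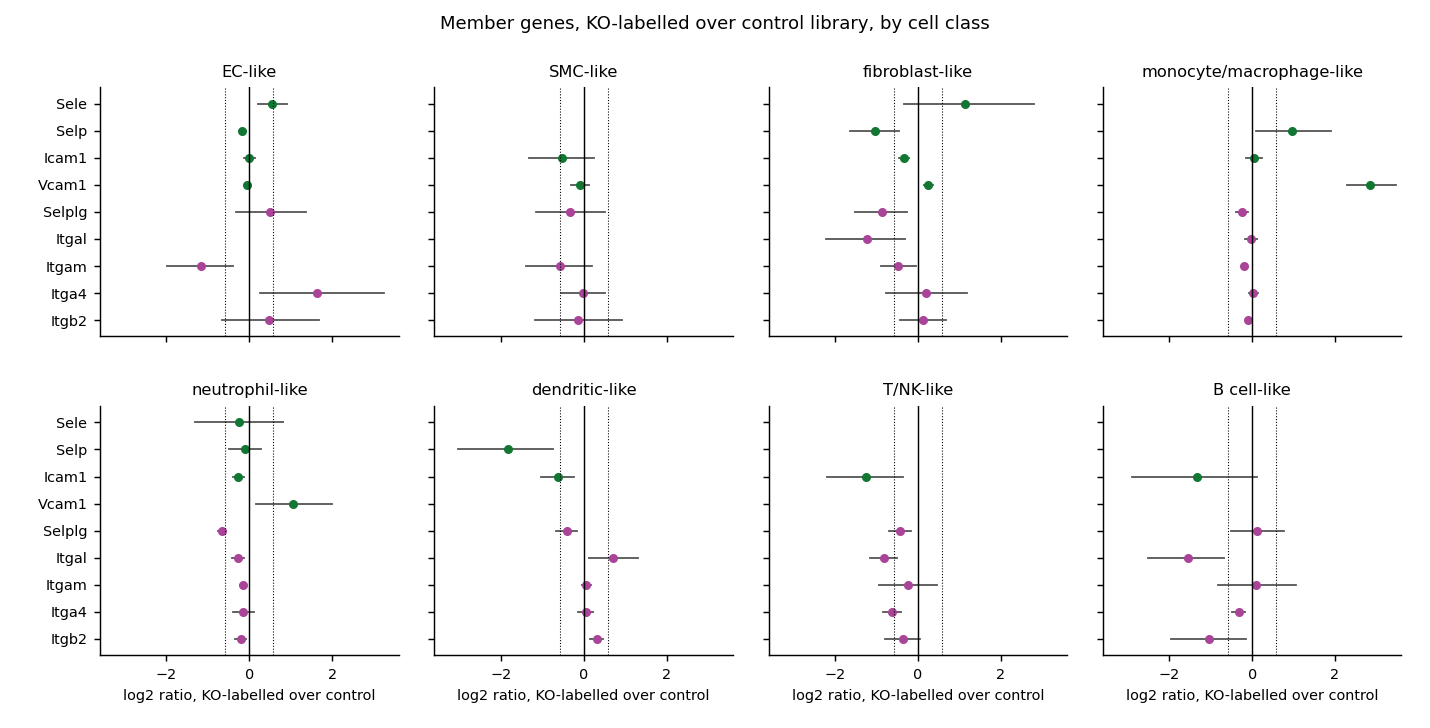
Log2 ratio of the library labelled EC-Cx43-KO over the control library for each of the 9 genes with at least 20 UMIs, in 8 cell classes, with exact 95% intervals for counting error. Ligands are green, counter-receptors purple, and dotted lines mark the calling size of 0.58. The 4 ligands of EC-like cells lie inside the dotted lines, and Vcam1 in monocyte/macrophage-like cells lies farthest out, at 2.85.

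The wider adhesion cascade was read from a list of 62 genes: selectins and their ligands, the enzymes that glycosylate them, immunoglobulin-family ligands, integrins, integrin activators, transmigration genes and NF-kB feedback genes. In EC-like cells 54 were measured, 6 were higher and 2 lower, where 5.52% and 5.93% of all genes were, and the list's median log2 ratio was -0.03 against -0.05 over all genes. The 9 NF-kB feedback genes, such as Nfkbia and Tnfaip3, had a median of 0.16 with 1 higher and 0 lower. With at least 50 UMIs, Rasgrp2, an activator of the small GTPase Rap1, was higher at 5.96 and 13.3 CPM, a ratio of 1.16 (0.43 to 1.93). In SMC-like cells 1 of 46 was higher and 2 lower, against 5.48% and 4.69% of all genes. In fibroblast-like cells 2 of 52 were higher and 4 lower, against 5.83% and 5.49%.

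In monocyte/macrophage-like cells 5 of 56 cascade genes were higher and 3 lower, near the 9.08% and 6.08% of all genes. St3gal6, a sialyltransferase of selectin ligands, was at 28.9 and 46.2 CPM, a ratio of 0.68 (0.43 to 0.93), and Tpst1, which sulfates PSGL-1, at 21.7 and 33.8 CPM, a ratio of 0.64 (0.36 to 0.93). Itgax, the CD11c chain, was lower at 17.0 and 9.94 CPM, a ratio of -0.78 (-1.18 to -0.37), and L1cam at 14.7 and 9.18 CPM, a ratio of -0.68 (-1.11 to -0.26). In neutrophil-like cells 2 of 49 were higher and 3 lower, against 8.96% and 10.7% of all genes, with a list median of -0.17 against -0.08 over all genes. Itga5, the fibronectin receptor chain, was the other named gene there, at 144 and 94.4 CPM, a ratio of -0.61 (-0.86 to -0.37).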

How the data were processed

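Single-cell RNA was measured in 2 libraries, 1 per group. Per the file headers and labels, the deposited tables hold a UMI count for every gene in every barcode; Cell Ranger 8.0.1, STAR and mm10 are named in the submitters' processing notes, and the authors' cell calling is not given in the sources used here. Barcodes with under 300 genes or over 15% mitochondrial UMIs were dropped. Doublets were ranked by simulated neighbours, and 363 control and 476 KO-labelled cells were removed, a number that follows from a rate of 0.008 per 1000 cells taken as given. The 2000 most variable genes, without the 9 genes, the cascade list and Gja1, gave 30 principal components, 20 neighbours and Leiden clusters at resolution 1 (Python 3.11.15, leidenalg 0.10.2, SciPy 1.17.1); EC-like cells were split again at 0.6. A cluster stayed unnamed with fewer than 3 markers detected (in 5% of its cells and above the other clusters' mean), with markers of another class leading its 10 top genes, or when shallow and without its own markers among them.

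From summed class counts, CPM was computed with exact Poisson intervals and ratios with exact conditional binomial intervals, tested on simulated data. Libraries with under 3 UMIs of a gene were set to 3 for its ratio. Free RNA was estimated from class markers in classes that should lack them. Named beside the 9 genes were cascade genes with at least 50 UMIs and a log2 ratio of at least 0.58, and the 3 genes most alike over classes among those with at least 200 UMIs. The genes and lists were chosen with earlier results of these data known. Fine cluster comparisons, the top-cell counts and the sex-linked cluster values were chosen after values were seen. Alternatives covered the filters, doublets, resolution, scaling, thinning, free RNA, the genes used for clustering and sex-linked transcripts.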

Additional observations from a re-analysis of the deposited data

How the results depend on the processing

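All values here are log2 ratios of the KO-labelled over the control library. Of the 19 called pairs of gene and class, 3 changed sign: Sele in fibroblast-like cells was -0.55 with Xist UMIs only, and with Y-linked UMIs only Selp in fibroblast-like cells was 0.68 and Itga4 in EC-like cells -0.47. The Itga4 ratio changed sign because 3 UMIs stood for 2 in the control library. Its CPM, 2.03 in control and 2.19 in KO-labelled cells, kept the direction. Another 12 kept their sign and fell short of the calling size under at least 1 alternative. As a mean of single-cell CPM, Sele in EC-like cells was 0.15, Selp -0.29, Vcam1 -0.15, Icam1 in fibroblast-like cells -0.60, Vcam1 in SMC-like cells 0.18, Itga4 in B cell-like cells -0.13, and Itgam and Itgb2 in monocyte/macrophage-like cells -0.26 and -0.22. In cells with Xist UMIs only, Sele was -0.90 and Vcam1 -0.17 in EC-like cells, Icam1 -0.085 and Vcam1 0.76 in fibroblast-like, Vcam1 0.68 in SMC-like, Selplg -0.52 in neutrophil-like, Itga4 -0.57 in B cell-like, and Vcam1 4.22 and Itgb2 -0.0086 in monocyte/macrophage-like cells. In cells with Y-linked UMIs only, Sele was 3.06, Selp 0.034, Icam1 -0.19 and Vcam1 0.37 in EC-like cells, Icam1 -0.57 and Vcam1 -0.12 in fibroblast-like, Itga4 0.32 in B cell-like, and Vcam1 2.26 and Itgam -0.12 in monocyte/macrophage-like cells. The cause was not tested.

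Without the capillary-like cluster, an alternative added after seeing the data, Selp was -0.083 and Vcam1 0.042 in EC-like cells. Sele there, 0.55 as reported and not called, passed the calling size at 0.64 with at least 500 genes per cell, 0.62 with up to 25% mitochondrial UMIs and 0.61 by median-of-ratios scaling, and under 3 alternatives added later: 0.62 when the marker score alone named clusters, 0.62 with the shallow endothelial-gene cluster joined and 0.63 without the capillary-like cluster. For Vcam1 in monocyte/macrophage-like cells the ratio was 2.01 with up to 25% mitochondrial UMIs, 1.91 with doublets kept, 4.64 with free RNA subtracted, and, in alternatives added later, 4.67 at the class's own endothelial marker rate (a floor of 3 UMIs standing for the control library), 1.56 when the marker score alone named clusters and 1.54 without the Lyve1-led cluster. Itgam there was -0.11 with at least 500 genes per cell, -0.13 with up to 25% mitochondrial UMIs, -0.12 with doublets kept, -0.11 at resolution 2, -0.12 with no gene left out of clustering, -0.092 by median-of-ratios scaling, -0.042 by marker score and -0.11 without the Lyve1-led cluster. Itgb2 there was -0.031 at resolution 2, -0.0044 by median-of-ratios scaling, -0.022 by marker score and -0.017 without the Lyve1-led cluster. The other 110 values of these results moved by less than their counting interval, and so did 261 values for single genes, while 26 moved further. The count of pairs past the calling size ran from 14 with Xist UMIs only to 23 as a mean of single-cell CPM, with 19 as reported.

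Median-of-ratios scaling moved the median of all genes by -0.11 in dendritic-like and -0.10 in B cell-like cells and by less in the other classes. Leaving out EC-like subclusters with a leukocyte marker among their 10 leading genes was not run, since none had one. No paired analysis was possible because each group is 1 library. Depth limits Sele, Selp outside the endothelium and all values under 20 UMIs.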
